A study of Mus musculus with 4 samples.

Results

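The regions described here are the peaks of YAP chromatin immunoprecipitation (ChIP-Seq) that lie at copies of the U2 small nuclear RNA (snRNA) gene in mouse embryonic stem cells (ESCs). They were chosen by their presence in the peak lists of the YAP samples: every listed peak that overlapped a gene named U2 in the GENCODE vM1 annotation, together with every peak in an interval on chromosome 1 and an interval on chromosome 11, next to Arl4d, where U2 copies lie close to each other. This selected 12 of 447 peaks in replicate 1 and 7 of 154 peaks in replicate 2. Each of the 7 in replicate 2 had a partner in replicate 1, so the peaks stood at 12 places in all. Because the call of a peak chose the members, the number of peaks and the tags in them are given as a description, with no test.

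The samples came from the mouse ESC line E14Tg2a, kept undifferentiated. YAP ChIP was carried out with a rabbit polyclonal antibody against YAP, and 2 YAP libraries and 2 input libraries, labelled as having no antibody, were sequenced. The study's methods state that the samples came from independent experiments and name rabbit IgG as the control of the precipitation, of which no library was analysed here. Only the peak lists of the 2 YAP replicates were used, since the input libraries were not analysed here, and MACS, the peak caller, was run without a control library. The level of U2 sequence in unprecipitated chromatin is therefore not given. The reference genome is from a different mouse strain than this cell line, and the number of U2 copies in these cells was not measured.

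U2 snRNA is the RNA core of the U2 ribonucleoprotein, which pairs with the branch site of the intron in the major spliceosome. Its genes are short, present in several nearly identical copies, and transcribed by RNA polymerase II from a promoter of their own kind, with a proximal element bound by the SNAP complex close to the gene and a distal element farther upstream that holds an octamer bound by the factor Oct-1 (Pou2f1) and often a GC box bound by Sp1. YAP is the transcriptional coactivator at the end of the Hippo pathway, and reaches DNA mainly through TEAD factors.

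A search of the genome (NCBIM37, the Ensembl name of mm9) with the 191 bp of annotated U2 gave 61 matches, of which 16 were near full-length copies, with at least 85% identity over at least 90% of the length. GENCODE vM1 names 51 genes U2, most of them shorter or more divergent. In the following, a copy is named by its chromosome. The 4 copies on chromosome 1 that form an array are U2-chr1a to U2-chr1d and the 5 of the array on chromosome 11 are U2-chr11a to U2-chr11e, lettered in the order of their coordinates. Solitary copies are U2-chr8 and U2-chr12, and, where a chromosome has more than 1, they carry the letters s, t and u (U2-chr11s, U2-chr11t, U2-chrXs, U2-chrXt, U2-chrXu). Each U2 peak covered 1 such copy, at least in part, and no more than 1.

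The sequence of U2-chr11e is shown first as the form against which the others were compared. Its capitals mark GTAGTA, the stretch that pairs with the branch site, at positions 33 to 38, and ATTTTTG, the binding site of the Sm proteins, at positions 99 to 105, counted from 1 at the 5′ end of U2. The other sequences show how far copies with and without a peak differed within the gene, and their capitals mark the bases that differ from U2-chr11e. All are mm9 sequences in the direction of the gene.
U2-chr11e, chr11:101519552-101519742, plus strand: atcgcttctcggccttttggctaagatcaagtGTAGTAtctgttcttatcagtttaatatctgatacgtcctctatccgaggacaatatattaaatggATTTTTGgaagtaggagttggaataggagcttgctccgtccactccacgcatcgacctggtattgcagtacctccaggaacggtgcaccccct
U2-chr1a, chr1:72272814-72273004, plus strand: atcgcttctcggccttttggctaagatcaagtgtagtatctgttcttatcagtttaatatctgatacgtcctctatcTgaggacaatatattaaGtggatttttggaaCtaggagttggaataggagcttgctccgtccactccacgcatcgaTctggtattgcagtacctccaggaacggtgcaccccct
U2-chr12, chr12:60141322-60141512, plus strand: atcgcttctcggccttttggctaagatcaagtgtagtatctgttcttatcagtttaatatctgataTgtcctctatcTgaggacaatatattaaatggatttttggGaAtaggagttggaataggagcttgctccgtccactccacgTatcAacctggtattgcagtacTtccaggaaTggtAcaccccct
U2-chr8, chr8:53422269-53422459, minus strand: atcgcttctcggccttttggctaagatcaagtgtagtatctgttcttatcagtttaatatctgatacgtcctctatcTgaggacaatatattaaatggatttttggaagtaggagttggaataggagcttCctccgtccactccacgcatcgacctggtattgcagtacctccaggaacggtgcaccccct
U2-chrXs, chrX:13892527-13892717, minus strand: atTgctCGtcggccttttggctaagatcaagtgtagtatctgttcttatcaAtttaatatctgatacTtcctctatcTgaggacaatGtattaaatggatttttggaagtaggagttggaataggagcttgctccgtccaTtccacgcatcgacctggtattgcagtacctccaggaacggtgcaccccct

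U2-chr11b, U2-chr11c, U2-chr11d and U2-chr11e had the same gene sequence. U2-chr11a differed from it by C170T, and U2-chr1b and U2-chr11s by G109C. All 4 copies of the chromosome 1 array carried G109C, to which U2-chr1c added C186A, U2-chr1d added T69C and C78T, and U2-chr1a added C78T, A95G and C154T. U2-chr12 differed from U2-chr11e at 9 positions and yet held a peak in both replicates, while U2-chr8, with only C78T and G131C, had a peak in replicate 1 only. U2-chrXs, with 8 differences, and U2-chrXu, with 19, had no peak listed. The branch site pairing stretch and the Sm site were intact in the 14 copies that aligned without gaps, other than the branch site stretch of U2-chrXu, which carried G33A. The identity to U2-chr11e was 95.3% to 100% in the 12 copies with a peak and 87.2% to 95.8% in the 4 without.

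The sequence just before the gene also differed between the copies. For 7 copies the 250 bp upstream of the gene are shown, in the direction of the gene and ending at the base before U2, with the octamer (ATGCAAAT) and the GC box (GGGCGG) in capitals. They were picked to show both arrays, the solitary copies with a peak in both replicates, U2-chr8 with its weak peak, and U2-chrXs, the copy without a peak that is most like U2-chr11e.
U2-chr11e upstream, chr11:101519302-101519551, plus strand: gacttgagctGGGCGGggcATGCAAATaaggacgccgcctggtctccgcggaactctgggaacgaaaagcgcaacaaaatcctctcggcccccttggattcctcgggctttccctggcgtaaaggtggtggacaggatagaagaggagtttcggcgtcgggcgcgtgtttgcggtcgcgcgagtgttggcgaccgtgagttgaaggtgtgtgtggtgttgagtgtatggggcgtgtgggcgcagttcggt
U2-chr11a upstream, chr11:101465914-101466163, plus strand: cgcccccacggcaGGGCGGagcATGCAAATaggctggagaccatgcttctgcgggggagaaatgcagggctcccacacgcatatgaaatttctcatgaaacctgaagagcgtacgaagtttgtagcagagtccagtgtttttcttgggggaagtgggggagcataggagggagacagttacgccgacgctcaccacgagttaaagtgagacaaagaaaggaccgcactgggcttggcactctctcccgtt
U2-chr11s upstream, chr11:83084750-83084999, plus strand: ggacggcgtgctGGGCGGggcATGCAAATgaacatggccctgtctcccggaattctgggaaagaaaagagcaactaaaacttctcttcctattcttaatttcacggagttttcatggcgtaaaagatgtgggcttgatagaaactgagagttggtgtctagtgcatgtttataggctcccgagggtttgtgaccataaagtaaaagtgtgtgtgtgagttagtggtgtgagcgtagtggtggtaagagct
U2-chr1a upstream, chr1:72272564-72272813, plus strand: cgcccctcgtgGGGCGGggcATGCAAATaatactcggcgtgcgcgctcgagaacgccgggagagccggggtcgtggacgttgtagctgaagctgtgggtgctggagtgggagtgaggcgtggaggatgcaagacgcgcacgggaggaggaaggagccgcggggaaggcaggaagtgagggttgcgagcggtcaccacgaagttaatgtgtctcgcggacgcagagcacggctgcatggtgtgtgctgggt
U2-chr12 upstream, chr12:60141072-60141321, plus strand: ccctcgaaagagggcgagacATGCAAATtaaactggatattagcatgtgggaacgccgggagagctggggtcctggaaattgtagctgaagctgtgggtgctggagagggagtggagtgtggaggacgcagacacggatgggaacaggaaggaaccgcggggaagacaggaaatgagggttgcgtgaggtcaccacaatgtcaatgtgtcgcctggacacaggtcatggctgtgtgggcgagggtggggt
U2-chr8 upstream, chr8:53422460-53422709, minus strand: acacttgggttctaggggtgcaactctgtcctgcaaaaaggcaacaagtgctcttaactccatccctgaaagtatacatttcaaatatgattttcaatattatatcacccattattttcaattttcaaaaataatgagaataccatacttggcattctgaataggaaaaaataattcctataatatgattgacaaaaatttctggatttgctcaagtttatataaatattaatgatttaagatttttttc
U2-chrXs upstream, chrX:13892718-13892967, minus strand: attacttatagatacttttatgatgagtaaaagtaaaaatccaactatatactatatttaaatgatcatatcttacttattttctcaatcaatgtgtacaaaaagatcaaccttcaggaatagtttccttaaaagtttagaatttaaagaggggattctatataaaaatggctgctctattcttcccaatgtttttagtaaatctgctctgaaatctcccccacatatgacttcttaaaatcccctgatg

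The octamer ATGCAAAT was searched on both strands in the 300 bp before each copy. It was found in 11 of the 16 copies, with its first base at positions -233 to -222 counted back from the gene start. All 11 had a peak in replicate 1, with 124 to 438 tags, and 7 had one in replicate 2. The other 5 copies, U2-chr8, U2-chr11t, U2-chrXs, U2-chrXt and U2-chrXu, had no octamer there, and only U2-chr8 had a peak, with 51 tags in replicate 1. The GC box GGGCGG was found upstream of 9 of the 11 copies with the octamer, all but U2-chr1b and U2-chr12, and upstream of none of the 5 others. Its first base lay 9 bases before that of the octamer in the copies with 1 box (positions -240 and -231 in U2-chr11e), and the motifs did not overlap.

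For comparison, the octamer was present in the same window before 2.39% of 37273 annotated genes, 4.50% of 1423 annotated snRNA genes and 17.6% of the 51 genes named U2, and the GC box before 28.8%, 3.87% and 15.7%. The TEAD core motif CATTCC was present before 14.5% of all annotated genes, 13.4% of the snRNA genes and 9.80% of the genes named U2. It was present before 0 of the 16 U2 copies, too few copies to read the 0 as a difference from these shares. The GC content of the 300 bp was 47.0% to 65.7% in the 11 copies with the octamer and 29.0% to 44.0% in the other 5. Upstream matches between copies went the same way. The sequence before the gene could be aligned to that of another copy for 241 to 670 bp in 10 of the 11, whereas U2-chr11a matched for 4 bp, and the 5 copies without the octamer for 0 to 15 bp. The motifs were chosen with the peak calls known, and a match is a description of the sequence, not of binding.

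The array on chromosome 1 lay between the coding genes Mreg and Pecr, with 28959 bp from the start of the first copy to the end of the last. U2-chr1a (chr1:72272814-72273004) was intergenic and U2-chr1b (chr1:72283520-72283710), U2-chr1c (chr1:72290787-72290977) and U2-chr1d (chr1:72301582-72301772) lay in introns of the long noncoding RNA D230017M19Rik, all 4 on the plus strand. The annotation calls only U2-chr1a U2, and lists the others as snRNA genes AC120136.2, AC120136.1 and AC120136.3, so their peaks were taken through the interval. The array on chromosome 11 spanned 53579 bp. U2-chr11a (chr11:101466164-101466354) was intergenic, between Tmem106a and Rdm1. U2-chr11b (chr11:101488680-101488870) lay in an intron of Rdm1, 171 bp after the start of that gene, so that its peak also covered the start of Rdm1, a gene of the RAD52 motif family. U2-chr11c (chr11:101503062-101503252), U2-chr11d (chr11:101507054-101507244) and U2-chr11e (chr11:101519552-101519742) lay between Rdm1 and Arl4d, which encodes a small GTPase of the ADP-ribosylation factor family, and the start of U2-chr11e was 7303 bp from that of Arl4d. U2-chr11d was the only array copy on the minus strand.

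Among the solitary copies, U2-chr11s (chr11:83085000-83085190, plus strand) was intergenic, U2-chr12 (chr12:60141322-60141512, plus strand) lay between Sip1 and Trappc6b, and U2-chr8 (chr8:53422269-53422459, minus strand) was 1174621 bp from the nearest coding gene start, that of Aga. Sip1, now called Gemin2, encodes a protein of the SMN complex, which loads Sm proteins onto snRNAs.

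The libraries had 22696949 unique tags in replicate 1 and 14965024 in replicate 2, the tags left after MACS removed duplicates, and tags in a peak are given below as deposited counts and scaled to 1000000 unique tags of their library (RPM). Over all peaks the median was 46 tags in replicate 1 and 36 in replicate 2. The score of a peak, 10 times the −log10 of its p-value against the surrounding chromatin, had to reach 50, and the lists began at 50.01 and 50.07. Intervals are exact Poisson intervals at the 95% level that cover counting error only. According to the study's methods a read with several positions counted at each only in part, but the lists hold whole tags and do not say whether the weights entered them. At copies that share sequence, a tag may therefore not stand for 1 read placed once, and the intervals take each tag as 1 read. Each value comes from 1 library, so replicate error can be judged only by setting both replicates side by side.

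In the chromosome 1 array, U2-chr1a held 438 tags in replicate 1 (19.3 RPM, interval 17.5 to 21.2) and 84 in replicate 2 (5.61 RPM, 4.48 to 6.95). U2-chr1b held 250 tags in replicate 1 (11.01 RPM, 9.69 to 12.5) and had no peak listed in replicate 2. U2-chr1c held 339 (14.9 RPM, 13.4 to 16.6) and 79 tags (5.28 RPM, 4.18 to 6.58). All 4 copies of this array were thus called in replicate 1, and U2-chr1b, the lowest of them, was the one missing from replicate 2. U2-chr1d held 325 (14.3 RPM, 12.8 to 16.0) and 57 tags (3.81 RPM, 2.88 to 4.93). The scores of the array in replicate 1 were 475.7, 300.9, 359.9 and 530.2 from U2-chr1a to U2-chr1d, and those of the 3 peaks in replicate 2 were 125.7, 78.4 and 68.4.

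The chromosome 11 array was less even. U2-chr11a held 142 tags in replicate 1 (6.26 RPM, 5.27 to 7.37) and U2-chr11b held 124 (5.46 RPM, 4.54 to 6.51), and neither had a peak in replicate 2. U2-chr11c held 383 tags in replicate 1 (16.9 RPM, 15.2 to 18.7) and 32 in replicate 2 (2.14 RPM, 1.46 to 3.02). The copies far from Arl4d were therefore the low ones in replicate 1. U2-chr11d held 332 tags in replicate 1 (14.6 RPM, 13.1 to 16.3) and had no peak in replicate 2. U2-chr11e, next to Arl4d, held 422 (18.6 RPM, 16.9 to 20.5) and 92 tags (6.15 RPM, 4.96 to 7.54), the most of all 7 in replicate 2. The scores in replicate 1 were 181.3, 181.6, 402.0, 346.0 and 422.6 from U2-chr11a to U2-chr11e, against 100.3 for U2-chr11c and 117.9 for U2-chr11e in replicate 2. The 4 copies with the same gene sequence, U2-chr11b to U2-chr11e, ranged from 124 to 422 tags in replicate 1, a 3.40-fold range.

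Of the solitary copies, U2-chr12 held 403 tags in replicate 1 (17.8 RPM, 16.1 to 19.6) and 70 in replicate 2 (4.68 RPM, 3.65 to 5.91). U2-chr11s held 295 (13.0 RPM, 11.6 to 14.6) and 57 tags (3.81 RPM, 2.88 to 4.93). Both lay within the range of the array copies. U2-chr8 held 51 tags in replicate 1 (2.25 RPM, 1.67 to 2.95) and had no peak in replicate 2, and was far below the others. Its score of 64.4 was the lowest of the U2 peaks in replicate 1, and the lowest in replicate 2 was 58.8, at U2-chr11s, both just above the limit of 50. The 4 copies with no listed peak were far from any, the nearest peak of replicate 1 lying 419317 bp from U2-chrXt and 1041479 bp from U2-chr11t.

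**Figure D1:**
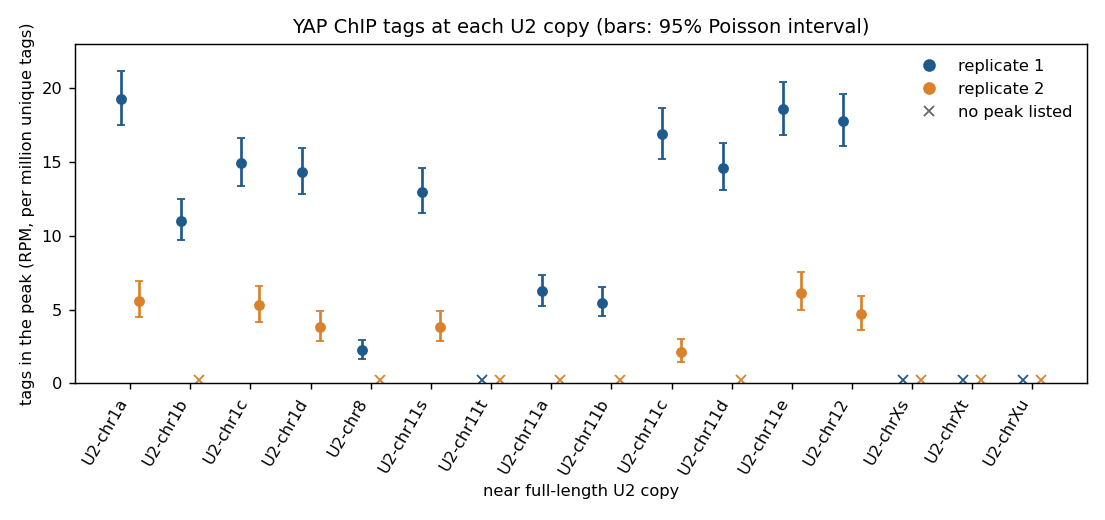
Tags in the YAP peak at each of the 16 near full-length U2 copies, in RPM (tags scaled to 1000000 unique tags), in replicate 1 (blue) and replicate 2 (orange), with 95% Poisson intervals; crosses mark copies with no peak listed. Replicate 1 lies above replicate 2 at all 7 shared places, and U2-chr8 is the lowest in replicate 1 at 2.25 RPM.

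Ordered by RPM in replicate 1, the copies ran from U2-chr1a through U2-chr11e, U2-chr12, U2-chr11c, U2-chr1c, U2-chr11d, U2-chr1d, U2-chr11s, U2-chr1b, U2-chr11a and U2-chr11b to U2-chr8. The intervals of neighbours in this order overlapped in 9 of 11 pairs. The 2 pairs without overlap were the steps from U2-chr1b down to U2-chr11a and from U2-chr11b down to U2-chr8. Overlap of such intervals is not a test of a step, and they take each tag as 1 read. In replicate 2 the order was U2-chr11e, U2-chr1a, U2-chr1c, U2-chr12, then U2-chr11s and U2-chr1d with equal tags, then U2-chr11c, and the intervals overlapped in all 6 neighbouring pairs.

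The replicates differed at the U2 copies. In replicate 1 the U2 peaks held 3504 tags, 0.0154% of the unique tags (95% Wilson interval 0.0149% to 0.0160%), and in replicate 2 they held 471, or 0.00315% (0.00288% to 0.00344%). They made up 2.68% of the peaks and 7.07% of the tags in peaks in replicate 1, but 4.55% of the peaks and 2.81% of the tags in peaks in replicate 2. These sums depend on a few large peaks, the largest of which held 3311 of the 16767 tags in peaks of replicate 2. The median number of tags per kb of peak was 164 at U2 against 38.6 over all peaks in replicate 1, and 43.6 against 32.8 in replicate 2. U2 peaks were thus above the median peak of their list in both replicates, by less in replicate 2. Summed over peaks, the tags per kb were 156 at U2 against 74.5 over all peaks in replicate 1, and 45.6 against 82.6 in replicate 2, where the order turned. By score, 9 of the 12 peaks of replicate 1 were among the 50 highest, which are 11.2% of that list, and 3 of the 7 of replicate 2 were among the 50 highest, which are 32.5% of the shorter list.

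At the 7 shared places the ratio of replicate 1 to replicate 2, in RPM, was 2.83 at U2-chr1c (interval 2.21 to 3.66), 3.02 at U2-chr11e (2.41 to 3.83), 3.41 at U2-chr11s (2.56 to 4.61) and 3.44 at U2-chr1a (2.72 to 4.40). It was 3.76 at U2-chr1d (2.83 to 5.07), 3.80 at U2-chr12 (2.94 to 4.97) and 7.89 at U2-chr11c (5.50 to 11.7). All 7 lay above 1 and, but for U2-chr11c, their intervals overlapped. The median was 3.44, against 1.34 (range 0.659 to 4.74) at the 59 other shared peaks, and 1.05 (0.659 to 4.56) at the 44 of those outside the U1, U3, U4, U5 and U11 genes. Peaks were longer in replicate 1, by 1.14 to 2.70 times at these places, and per kb of peak the ratio was 2.20 to 3.17, with U2-chr11c at 2.93. Other small RNA genes called in both replicates lay on the same side, with median ratios of 2.58 at U1 (4 peaks), 3.93 at U3 (4) and 2.30 at U5 (5). The cause of the difference between the replicates was not tested.

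Of the 12 peaks in replicate 1, 7 (58.3%) had a partner in replicate 2, against 14.8% of all 447 peaks, and the 7 in replicate 2 all had a partner in replicate 1, against 42.9% of all 154. Since the calls chose the members, nothing is read from these shares. The 7 places called in both held 295 to 438 tags in replicate 1 (median 383), and the 5 called in replicate 1 only held 51 to 332 (median 142). The ranges overlapped through U2-chr11d, which had 332 tags and no partner. Shared peaks had their summits 7 bp (U2-chr12) to 129 bp (U2-chr11e) apart, with a median of 60 bp, against 31 bp at the 59 other shared peaks. The summit of replicate 2 lay downstream of that of replicate 1, in the direction of the gene, at 6 of the 7 places, and 16 bp upstream at U2-chr11c.

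The summits were spaced much like the genes. Most of the peaks overlapped a gene named U2, as the rule asked, so this likeness was largely set by the choice of peaks. Starts of neighbouring copies on chromosome 1 were 10706, 7267 and 10795 bp apart, and the summits of replicate 1 were 10709, 7227 and 10911 bp apart. On chromosome 11 the starts were 22516, 14382, 4182 and 12308 bp apart and the summits 22560, 14623, 3722 and 12599 bp. The closest peaks, at U2-chr11c and U2-chr11d, were separated by 1617 bp without a call, and between the other neighbours the uncalled stretch was 5250 to 21002 bp. Each copy of an array had a called interval of its own in replicate 1. Reads that fit several copies could add to more than 1 of these intervals, and their part was not tested. In replicate 2 only U2-chr1c and U2-chr1d were neighbours that were both called, with summits 10862 bp apart.

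**Figure D2:**
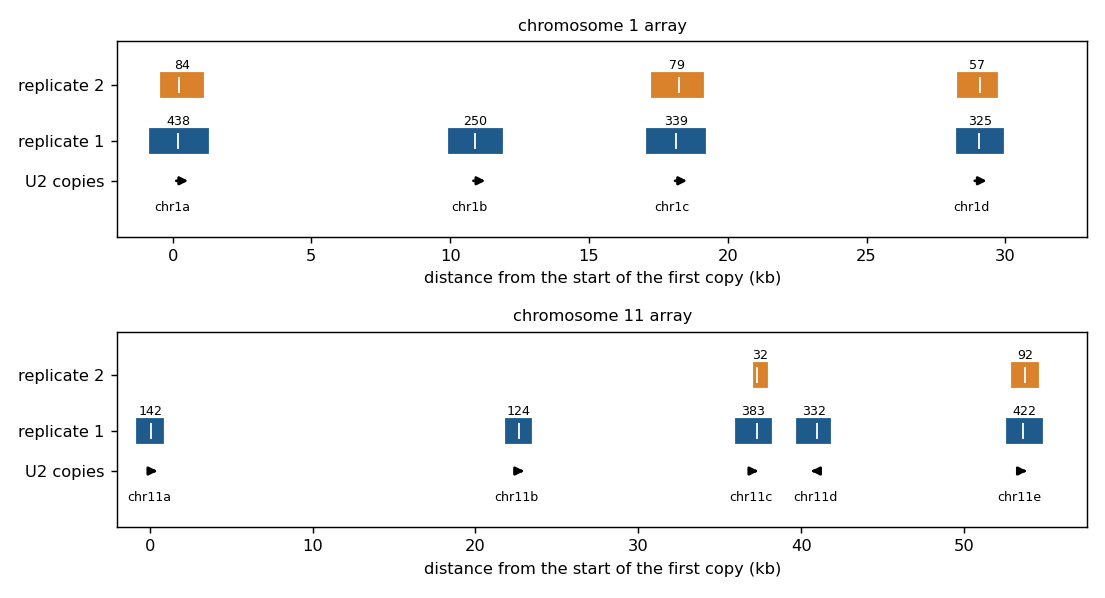
Map of the 2 U2 arrays, by distance in kb from the start of the first copy, with the peaks of each replicate as bars, the tags in each peak above the bar, the summit as a white line, and arrows for the direction of each copy. All 9 array copies have a separate peak in replicate 1, with 124 to 438 tags, and 5 have one in replicate 2, with 32 to 92 tags.

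The U2 peaks varied in length, with medians above those of all peaks in both replicates. They measured 1319 to 2165 bp in replicate 1 (median 1946, against 1260 over all peaks), with U2-chr8 the shortest and U2-chr11c the longest, and 803 to 1811 bp in replicate 2 (median 1566, against 1082.5 over all peaks). The fold enrichment over the local background, as deposited, was 7.97 to 13.2 in replicate 1 (median 10.6, against 8.97 over all peaks) and 6.94 to 10.6 in replicate 2 (median 7.65, against 7.62 over all peaks). U2-chr11d, with 13.2, had the highest and U2-chr11c, its neighbour, with 7.97, the lowest value in replicate 1.

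All 12 peaks of replicate 1 held the whole gene. They began upstream of it, at positions -913 to -492 (median -753), and ended 792 to 1392 bp after its first base (median 1182.5). Measured from the first base of U2, which is position 0, so that the last of the 191 bases is position 190, the summits of replicate 1 lay between 76 and 377 bp, with a median of 178 bp. Of these, 7 were inside the gene (U2-chr8 at 76, U2-chr11d at 83, U2-chr11a at 92, U2-chr11b at 136, U2-chr1c at 153, U2-chr11s at 166 and U2-chr1a at 190), 5 were downstream and none upstream. Over the 9 copies annotated as U2 the median was 166 bp. In replicate 2 all 7 summits were downstream of the gene, between 233 bp at U2-chr12 and 361 bp at U2-chr11c, with a median of 262 bp. The octamer, where present, was on the other side of the gene start, and neither the octamer nor the GC box was found within 250 bp of any U2 summit.

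**Figure D3:**
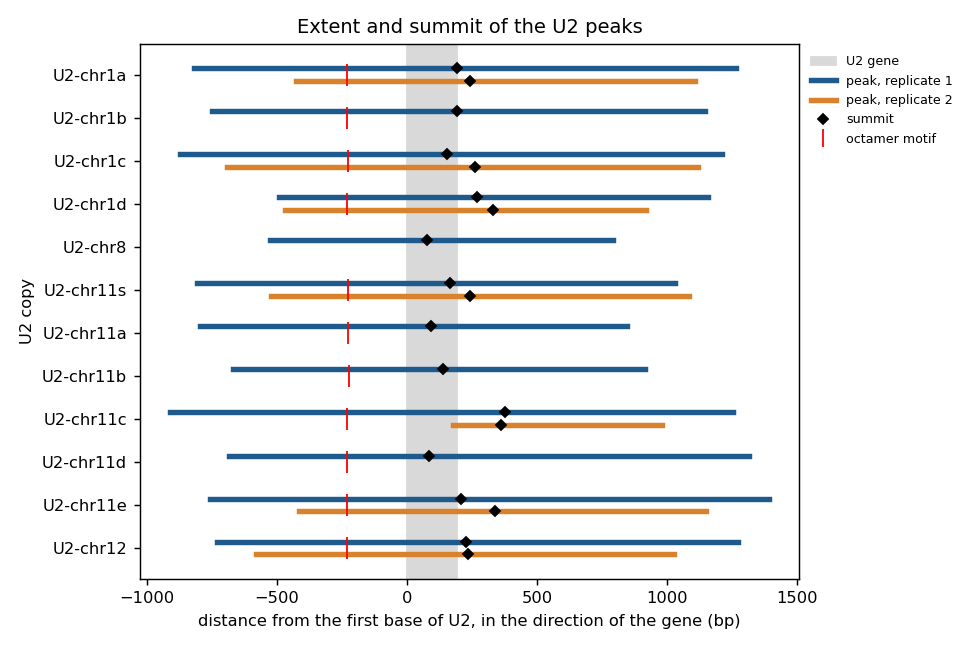
Extent (bars) and summit (diamonds) of the U2 peaks in replicate 1 (blue) and replicate 2 (orange), in bp from the first base of U2 in the direction of the gene; the grey band is the gene and the red marks are the octamer. No summit lies upstream of the gene, and the peak of replicate 2 at U2-chr11c begins inside it, at 176 bp.

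The peak of replicate 2 at U2-chr11c was the exception in extent. It began at position 176, inside the gene, and measured 803 bp, so that 6 of the 7 peaks in replicate 2 held the whole gene. The TEAD core CATTCC was found within 100 bp of 1 of the 12 summits in replicate 1 (8.33%, against 10.03% of 399 other peaks with sequence in the reference) and 1 of 7 in replicate 2 (14.3%, against 13.1% of 137). With 250 bp on each side the numbers at U2 stayed at 1 and 1, and those of the other peaks rose to 20.8% and 21.2%. The U2 summits are few and lie at nearly identical copies, so nothing is read from this difference.

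Since the copies are nearly the same, the share of sequence found once in the genome was measured beside the tags. Only exact matches were counted, whereas the study's alignment allowed mismatches. A 25-mer found once could therefore still align to another copy, and the shares are upper limits of what a read can place. At the tag size of 25 bases stated in the file headers, 42.1% to 92.3% of the 25-mers in the U2 peaks of replicate 1 occurred once in the genome, with a median of 77.3% against 71.0% over all peaks of that list. The gene itself held far fewer. In the 11 copies with the octamer a median of 0% of the 25-mers that lie wholly within the gene were found once (range 0% to 44.9%, the highest at U2-chr12). The median 25-mer of the gene occurred 11 times in most of these copies, and the most frequent 255 times, above the limit of 100 positions per read that the authors set. In the 5 copies without the octamer 15.0% to 93.8% were found once, with U2-chr8 at the low end.

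U2-chr11c and U2-chr11d formed an inverted pair, 98.6% identical over 1337 bp, and had the lowest shares of unique sequence among the peaks, 43.3% and 42.1%. Within 100 bp of the summit of replicate 1 the share was 0% at U2-chr11d and 98.9% at U2-chr12, with a median of 40.7%. The summits of replicate 2, which lay farther downstream, had 26.0% at U2-chr11c and 85.9% to 100% at the 6 other copies, with a median of 97.7%. U2-chr12, which had the most unique sequence of the peaks, held 403 and 70 tags, and U2-chr1d, with 94.9% unique 25-mers near the summit of replicate 1, held 325 and 57. A high share over the whole peak did not always go with many tags. U2-chr11b, with 85.2% over its peak but 22.0% near its summit, held 124 tags in replicate 1 and had no peak in replicate 2. U2-chr11d, with 42.1% over its peak and 0% near its summit, held 332 tags in replicate 1. The lists give 1 number of tags per peak and do not separate tags in the shared gene from tags in the unique flanks. How much of the tags at any copy came from reads that fit several copies was not tested.

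**Figure D4:**
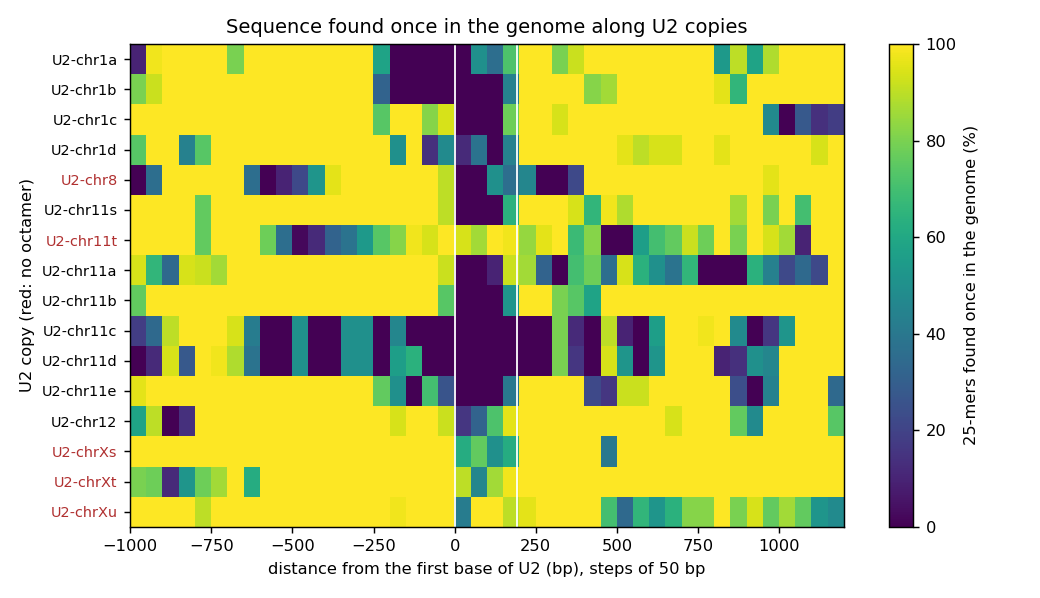
Share of 25-mers found once in the genome, in steps of 50 bp by distance from the first base of U2, for the 16 copies (colour, 0 to 100%; copies named in red have no octamer; white lines bound the gene). The gene is dark in most copies with a peak, and U2-chr11c and U2-chr11d are dark far into both flanks.

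Among snRNA families, U2 was 1 of several with peaks. In replicate 1 a peak overlapped 9 of 51 annotated genes named U2, 19 of 206 named U1, 7 of 10 named U5, 5 of 47 named U3, a small nucleolar RNA, and 2 of 43 named U4, against 3.16% of all 1423 annotated snRNA genes. In replicate 2 the numbers were 5 for U2, 4 for U1, 5 for U5, 4 for U3 and 2 for U4, against 1.34% of all snRNA genes. U6 had a peak at 1 of 936 annotated genes in replicate 1 and at none in replicate 2, and 7SK, another small RNA, at 0 of 331 in both. U6 made up 936 of the 1423 snRNA genes and so weighed heavily on the shares of all snRNA genes given above. Genes were counted by name, with no check for full-length copies, and reads with more positions than the authors' limit were not kept. How many U6 or 7SK genes could hold a peak under that limit was not tested, so nothing is read from their low numbers. U7, U12 and U4atac had 1 peak each in replicate 1 only, U11 had 1 in both and U6atac none.

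The median tags per peak in replicate 1 were 328.5 at U2, 327 at U1, 448 at U3 and 211 at U5, or 14.5, 14.4, 19.7 and 9.30 RPM, against 1.85 RPM at the 398 peaks outside these classes and the other snRNA genes. In replicate 2 the median at U2 was 4.68 RPM and that of the other 132 peaks 2.14. In replicate 1 the 19 U1 peaks had a median of 6.93% unique 25-mers, below the 77.3% of U2, and 4 of them (21.1%) were shared with replicate 2. In replicate 2 the 4 U1 peaks had a median of 84.3% and the 7 U2 peaks one of 80.8%, so the order turned.

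**Figure D5:**
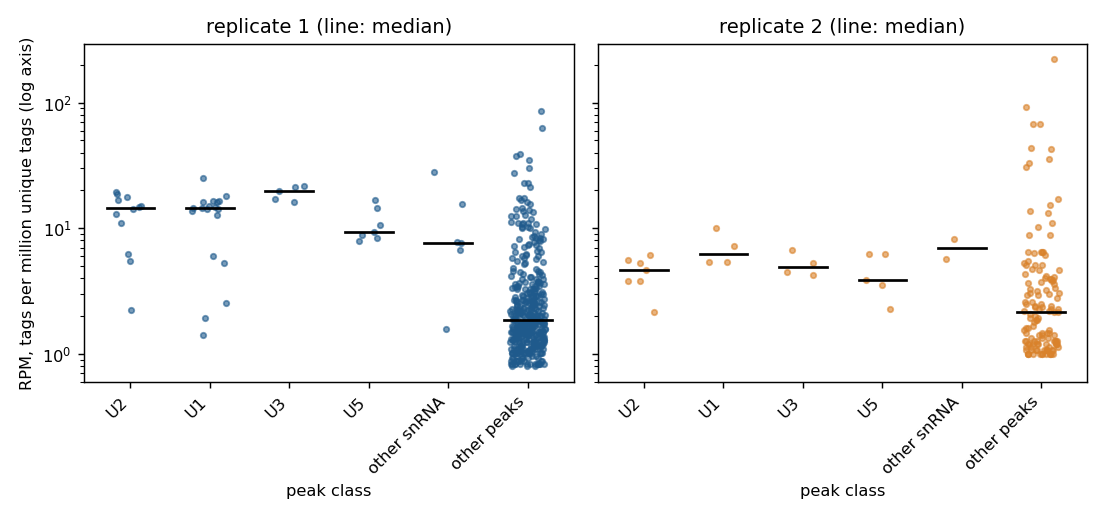
RPM (log axis) of each peak by class, in replicate 1 (left) and replicate 2 (right), with the median as a black line. U2 peaks sit between 2.25 and 19.3 in replicate 1 and between 2.14 and 6.15 in replicate 2.

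The genes that act with U2 were examined for peaks as well. None of the 17 annotated genes of a list of U2 ribonucleoprotein and U2-associated proteins, such as Snrpa1, Snrpb2, Sf3a1 and Sf3b1, had a peak within 5 kb of its start in either replicate. Of the genes for factors that transcribe snRNA genes, such as Snapc1, Snapc4, Pou2f1 and Sp1, 13 were annotated, and none had a peak. Over all 22367 coding genes the share was 0.617% in replicate 1 and 0.165% in replicate 2.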

How the data were processed

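YAP ChIP-Seq of E14Tg2a ESCs was analysed from the peak lists of the 2 YAP replicates; the 2 input libraries were not analysed here. Per the study's methods the authors aligned reads to mm9 with bowtie, allowing mismatches and keeping reads with up to 100 positions, and called peaks with MACS. The methods do not say whether the replicates were called apart, but each has a peak list of its own. The set of bona fide peaks that the study reports was not compared with these lists. Per the file headers the p-value cutoff was 1.00e-05, the tag size 25, the band width 300 and no control was given. The authors weighted alignments by the inverse of their number of positions. The tags in a peak were deposited as a whole-number count, not scaled to library size, and whether the weights entered this count is not given in the sources used here. The deposited score is 10 times the −log10 of the p-value. The deposited fold enrichment is the ratio of tags to the local background. Lengths and summits are positions in bp as deposited by the authors.

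The U2 members, gene lists and motifs were chosen with earlier results of these data known. Peaks were joined to genes and between replicates by overlap of at least 1 bp. The named copies are all U2 members of the rule, with the coding genes beside them and the snRNA families with peaks. For the pathway 18 and 16 gene symbols were listed, with older and newer names counted apart, of which 17 and 13 were found. Copies were found with blastn 2.17.0 (E-value 1e-10) in NCBIM37, and sequences were read with pysam 0.24.0 from that assembly. The occurrence of 25-mers (and 36-mers) on both strands was counted exactly and tested on simulated data. Peaks on unplaced sequence (36 and 10) have no sequence values. Tags were scaled to unique tags (22696949 and 14965024), with exact Poisson intervals, Clopper-Pearson intervals for ratios and Wilson intervals for shares (scipy 1.17.1), all at 95% and for counting error only. No model or test was fitted, since the peak calls chose the members. Alternatives in the assignment of peaks, score limit, overlap, scaling, k-mer length and window were computed.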

Additional observations from a re-analysis of the deposited data

How the results depend on the processing

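Of 17 alternative settings, 12 were classed as leaving the value the same and 5 as moving it. Falls from 12 to 9 and from 7 to 5 peaks were classed as the same. Most of the values are counts, shares or distances, which have no direction to reverse. With a score of at least 100, replicate 2 kept 3 of its 7 U2 peaks, and 3 of the 7 shared places remained with that score in both replicates, while replicate 1 kept 11 of 12. The number of U2 places was 7 without replicate 1 and 12 without replicate 2, the latter fixed because every U2 peak of replicate 2 had a partner in replicate 1. The median share of unique sequence in the peaks of replicate 1 moved from 77.3% to 81.7% with 36-mers and to 40.7% within 100 bp of the summit. Taking only peaks that overlap a gene named U2 gave 9 and 5 peaks, and scaling by total tags gave a median ratio of 3.42. No paired analysis was possible because no result came from a test, and the inputs, which carry the same replicate numbers, were not analysed here. With 36 and 10 peaks on unplaced sequence and no input, further U2 copies outside the assembled chromosomes could not be described.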
